A study of Mus musculus with 8 samples.

Results

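The genes described here encode 41 proteins of the complement and coagulation cascades, chosen by gene symbol from the 19348 genes of the count table, and all 41 were present with reads. The RNA-seq data came from male C57BL/6 mice aged 12 weeks, kept on a normal diet and killed after 16 h without food. Liver and epididymal white adipose tissue (eWAT, the fat pad beside the epididymis) were taken from 2 mice labelled Crtc1-/- and 2 labelled Crtc1+/+, which gave 8 libraries in 4 groups of 2. The Crtc1-/- line lacks Crtc1, a coactivator of the transcription factor CREB, in the whole body after CRISPR/Cas9 editing, so no cell type was singled out by the deletion. Libraries are called KO-labelled (Crtc1-/-) and WT-labelled (Crtc1+/+) here.

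Complement is a set of plasma proteins that tag and lyse microbes. It is started by C1q bound to antibody, by mannose-binding lectins on sugars, or by the alternative pathway, and all routes meet at C3 and end in a membrane pore. Coagulation runs through a chain of serine proteases to thrombin, which cuts fibrinogen into fibrin, and plasmin then dissolves the clot. Hepatocytes make most of these proteins, whereas C1q and properdin are known from myeloid cells, tissue factor from stromal and epithelial cells, factor VIII from endothelium, the factor XIII A chain from macrophages and megakaryocytes, and C7 from stromal cells. From this textbook knowledge 23 members were classed as made mainly by hepatocytes, 10 as made by liver and by other tissues, and 8 as made mainly by other cells.

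Several libraries departed from their labels. For the targeted gene Crtc1, levels were 11.7 and 9.86 CPM (read counts scaled to depth) in WT-labelled liver and 22.1 and 18 CPM in KO-labelled liver. In eWAT it was at 32.6 and 33.7 CPM in WT-labelled libraries and at 58.5 and 33.6 CPM in KO-labelled libraries, so it was not lower under the knockout label in either tissue. These are counts of the whole gene, which also hold reads from exons that the editing did not target. The summed level of 15 hepatocyte markers was 115000 CPM in replicate 2 of KO-labelled eWAT, where albumin led. It was 1480 to 8990 CPM in the other eWAT libraries and 203000 to 248000 CPM in liver. The sum of 8990 CPM, in replicate 1 of KO-labelled eWAT, was led by Cyp2e1 (4990 CPM) and Pck1 (2710 CPM). Albumin was at 522 CPM there and at 2760 and 422 CPM in WT-labelled eWAT, so the sums do not order these libraries as albumin does. The 10 epididymis markers summed to 67000 and 79100 CPM in WT-labelled eWAT and to 23 and 10.6 CPM in KO-labelled eWAT. The 11 adipocyte markers summed to 2850 and 4740 CPM in the former and to 48000 and 23000 CPM in the latter, and adiponectin was detected in all 4. The genotype label in eWAT therefore cannot be told apart from the epididymis markers, and eWAT fold changes of the members named are given with and without replicate 2 of KO-labelled eWAT. In bulk tissue, fewer cells of a type and less RNA per cell cannot be told apart either.

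Per unit of transcript length, the liver levels of the members spanned several orders of magnitude. In WT-labelled liver, C3, the hub of complement, was at 3120 and 2630 FPKM (fragments per kilobase of transcript, scaled to depth). Vitronectin (Vtn), a plasma adhesion protein that binds the terminal complement complex, was at 2920 and 2530 FPKM, a range that overlapped that of C3. The fibrinogen beta chain (Fgb) followed at 2100 and 1820 FPKM. High-molecular-weight kininogen (Kng1) at 1310 and 1420 FPKM, the gamma chain (Fgg) at 1310 and 1180 FPKM and the alpha chain (Fga) at 1220 and 1070 FPKM could not be ordered beyond their spread. Prothrombin (F2) was at 913 and 873 FPKM. The lowest of the hepatocyte-made members was factor XI (F11) at 3.96 and 9.34 FPKM, a range that held Pros1 at 5.03 and 7.97 FPKM. From the non-hepatocyte class, F3, F8, C7 and F13a1 lay lower. All 41 members together held 3.62% and 3.44% of the counts in WT-labelled liver, 3.35% and 2.7% in KO-labelled liver, 0.194% and 0.0642% in WT-labelled eWAT, and 0.285% and 1.59% in KO-labelled eWAT.

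**Figure D1:**
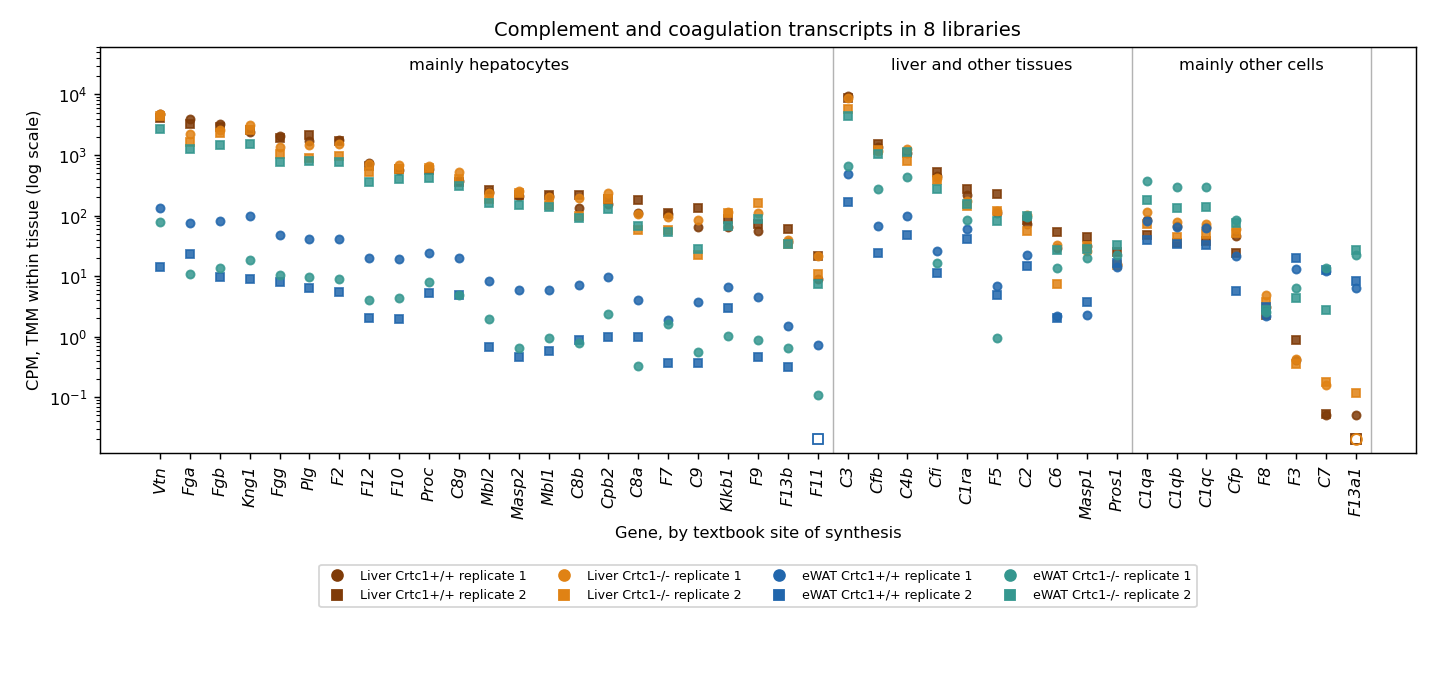
Level of each member in each of the 8 libraries, in CPM scaled by TMM within each tissue, on a log axis. Circles are replicate 1 and squares replicate 2, colours are tissue and labelled genotype, and open symbols at the bottom mark a value of 0 (F11 in eWAT and F13a1 in liver). For the hepatocyte-made members 3 of the 4 eWAT libraries lie well below liver, and Crtc1-/- eWAT replicate 2 lies close to liver.

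The comparison of eWAT with liver asks which members are made outside the liver. In the WT-labelled groups, 38 of 41 members passed an adjusted p of 0.05 in edgeR's quasi-likelihood test, against 54.9% of all genes tested. Of these, 35 were lower in eWAT, where 19.8% of all genes were lower, and C7, F3 and F13a1 were higher, where 35% of all genes were. The 3 chains of C1q did not pass in this fit. They passed as lower in DESeq2, which called all 41, and in edgeR with the replicate number as a block (36 members, without C8b, Cpb2, F9, Kng1 and Masp2) or with the number as a block within genotype (30 members, chosen after seeing the data). Of all genes, these fits called 50.6%, 59.2% and 54.7%. The study's methods describe liver and eWAT of 2 mice, but the labels do not say that a number marks the same mouse in both tissues. The median of all genes tested was itself shifted by 0.607 (log2) toward eWAT with TMM scaling and by 2.003 with library totals, and the sign of C1qa, C1qb, C1qc and F8 changed between these scalings. Leaving out replicate 2 of WT-labelled eWAT left 11 calls (31.5% of all genes) and leaving out replicate 1 left 18 (36.9%). Without replicate 1 or 2 of WT-labelled liver 14 and 13 calls were left (26% and 27.4%), and without either KO-labelled liver 25 (46.5% and 46.4%). Leaving out either KO-labelled eWAT library gave 41 (54.4% and 52.8%). In the KO-labelled groups only 6 members were called (C7, F3 and F13a1 higher in eWAT, and C1ra, F8 and Masp1 lower), against 27.8% of all genes (18.9% higher and 8.89% lower). With library totals the median of all genes went from 0.201 to 1.332 and 45.7% of all genes were called. The member calls were then C1qc, C7, F3 and F13a1, all higher, so the 3 lower calls were lost. Without replicate 2 of KO-labelled eWAT, 34 were called, against 36.2% of all genes. Without replicate 1 or without replicate 2 of KO-labelled liver the call of F13a1 alone was left, against 9.17% and 10%.

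The separation of the classes is plainest as the eWAT level in percent of the mean liver level of the same labelled genotype, both in CPM of the library total. The 23 hepatocyte-made members lay at a median of 3.64% (2.04% to 10.2%) and 0.403% (0% to 4.34%) of liver in the WT-labelled eWAT libraries. In KO-labelled eWAT they lay at 0.681% (0.258% to 2.03%) in replicate 1 and at 51% (36.1% to 73.4%) in replicate 2. The 15 hepatocyte markers had medians of 3.74%, 0.374%, 0.598% and 52.3% in the same 4 libraries, so the medians of members and markers lay close together in each library. The class holds the pore-forming genes C8a, C8b, C8g and C9, the mannose-binding lectins Mbl1 and Mbl2 with their protease Masp2, and the contact factors F11, F12, Klkb1 and Kng1. It also holds the clotting proteases F2, F7, F9 and F10, the fibrinogen chains, F13b, the anticoagulant protease protein C (Proc), plasminogen (Plg), Cpb2, a carboxypeptidase that slows clot lysis, and Vtn. Klkb1, which encodes prekallikrein, had the highest share of its class in both WT-labelled libraries, 10.2% and 4.34%, and was at 6.7 and 2.96 CPM there against 1.04 and 67.3 CPM in KO-labelled eWAT. Kng1 has a close copy, Kng2, at 1.61 to 223 CPM, so its counts are uncertain. F11 was at 0 counts in 1 library, WT-labelled eWAT replicate 2, where 3 counts correspond to 0.17 CPM.

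**Figure D2:**
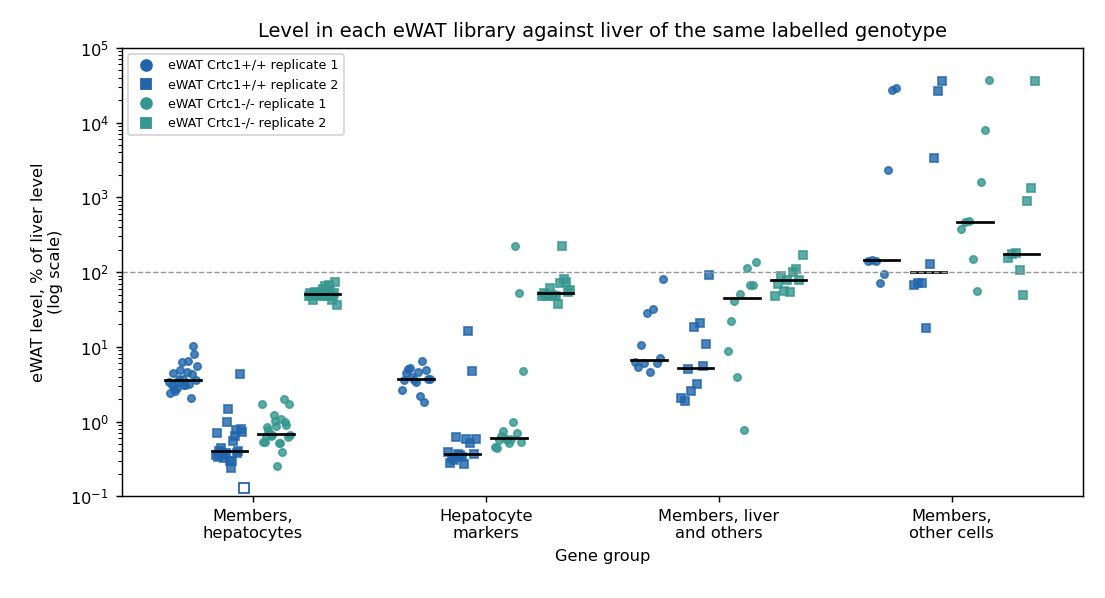
Level in each eWAT library as a percentage of the mean of the 2 liver libraries of the same labelled genotype (log axis), for the 3 classes of members and for 15 hepatocyte markers. Each point is a gene, black lines are medians, the dashed line is the liver level and the open square is F11 at 0. The hepatocyte-made members and the hepatocyte markers have nearly the same median in each library, 51% and 52.3% in Crtc1-/- replicate 2.

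The 10 genes of liver and other tissues were mixed. Their medians were 6.64% and 5.26% in WT-labelled eWAT and 45.7% and 78.2% in KO-labelled eWAT, and C3, C6, Cfb, Cfi, F5 and Masp1, at 4.65% to 7.04%, lay inside the range of the hepatocyte class in WT-labelled replicate 1. Cfi, or factor I, was at 6.11%, 2.58%, 3.97% and 55.6% and factor V (F5) at 4.65%, 3.21%, 0.769% and 54.5%, inside the range of that class in the 4 libraries except for Cfi in KO-labelled replicate 1. C3 was at 6.25% and 2.05%, then at 8.87% and 48.5%. Pros1, which encodes protein S, the cofactor of activated protein C, was at 81.3% and 92% of the liver level in WT-labelled eWAT and at 137% and 168% in KO-labelled eWAT. C2, the protease of the classical C3 convertase, was at 32.3% and 20.7% and then at 115% and 99.8%. C1ra, a protease of the C1 complex, was at 28.6% and 18.5% and then at 50.7% and 78.6%.

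C7, which joins the membrane attack complex between C6 and C8, and F13a1, the fibrin-crosslinking transglutaminase chain, were nearly absent from liver. C7 had 491 counts in the 2 WT-labelled eWAT libraries against 2 in the matching livers, a CPM ratio of 269 (95% counting interval 73.9 to 2220), and 289 against 6 in KO-labelled libraries, a ratio of 47.4 (21.5 to 130). The last value averages unlike libraries, with C7 at 7940% of the liver level in replicate 1 and 1340% in replicate 2. F13a1 had 294 counts against 1, a ratio of 322 (57.3 to 12700), and 796 against 2, a ratio of 392 (108 to 3240). The intervals cover counting error only. F3, or tissue factor, the cell-surface starter of clotting, was at 2340% and 3380% of the liver level in WT-labelled libraries and at 1600% and 898% in KO-labelled libraries. F13b, the carrier chain that pairs with F13a1 in plasma, was in the hepatocyte class, at 3.64%, 0.732%, 1.73% and 73.4% of liver, so the transcripts for the chains of factor XIII were highest in different tissues.

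The promoters of the 3 fibrinogen genes, which were far below the liver level in every eWAT library except KO-labelled replicate 2, and of C1qc and F13a1, the 2 of 7 matched genes of the non-hepatocyte class that held the letters of a myeloid factor, are shown as examples of the classes. Sequences are from RefSeq (GRCm38.p6), up to 250 bases before the RefSeq start and cut where the GENCODE gene begins, written 5′ to 3′ on the gene's strand. Capitals mark matches on either strand to GTTAAT (a half-site of HNF1, a liver factor), TTGCNNAA (C/EBP, a factor of liver and fat) or GAGGAAG (PU.1, a myeloid factor).
Fga, chr3:83025903-83026075, plus strand: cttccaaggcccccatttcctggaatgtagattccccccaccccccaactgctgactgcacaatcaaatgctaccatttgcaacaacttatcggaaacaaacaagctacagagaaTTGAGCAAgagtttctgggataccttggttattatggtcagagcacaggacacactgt
Fgb, chr3:83049864-83050113, minus strand: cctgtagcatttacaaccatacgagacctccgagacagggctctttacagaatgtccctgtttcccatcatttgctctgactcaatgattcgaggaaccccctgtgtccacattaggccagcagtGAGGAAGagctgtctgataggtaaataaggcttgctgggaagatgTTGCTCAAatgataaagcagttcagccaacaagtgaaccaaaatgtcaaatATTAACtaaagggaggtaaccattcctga
Fgg, chr3:83007474-83007723, plus strand: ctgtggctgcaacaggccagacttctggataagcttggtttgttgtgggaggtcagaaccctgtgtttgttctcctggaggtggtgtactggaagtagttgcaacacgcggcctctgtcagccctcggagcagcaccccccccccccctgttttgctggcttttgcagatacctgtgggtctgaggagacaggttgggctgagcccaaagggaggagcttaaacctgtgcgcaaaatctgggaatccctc
C1qc, chr4:136893066-136893164, minus strand: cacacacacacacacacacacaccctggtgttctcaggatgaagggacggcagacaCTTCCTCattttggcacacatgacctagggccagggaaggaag
F13a1, chr13:37050245-37050494, minus strand: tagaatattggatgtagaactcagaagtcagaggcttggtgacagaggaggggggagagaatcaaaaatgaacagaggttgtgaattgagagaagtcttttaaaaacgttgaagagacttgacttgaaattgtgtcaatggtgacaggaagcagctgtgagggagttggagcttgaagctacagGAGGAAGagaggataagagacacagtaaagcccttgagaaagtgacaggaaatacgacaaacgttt
Fgb held all 3 letter patterns, at 125, 80 and 29 bases before the start for PU.1, C/EBP and HNF1. Fga held the C/EBP pattern at 135 bases and the HNF1 pattern at 43 bases, the latter in the stretch that was cut, and Fgg held none. C1qc and F13a1 held the PU.1 pattern at 194 and 66 bases. Of the 32 members with a promoter in the RefSeq table, HNF1 letters were found in 9, which were 6 of 20 hepatocyte-made members, 1 of 5 of liver and other tissues and 2 of 7 made by other cells, against 6.43% of 32851 promoters. C/EBP letters were found in 7 (6 of them hepatocyte-made, and none of the 7 made by other cells), against 9.56%, and PU.1 letters in 3 (Fgb, C1qc and F13a1), against 10.6%. A match of this kind is a description of letters and not a bound site.

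The comparison of genotype labels within eWAT asks whether these transcripts differ in fat. With all 4 libraries, 5 of 41 members (12.2%) were called and 12.2% of all genes were, so the share of calls was that of the background. DESeq2 called 15 members (36.6%) and 30% of all genes, and its 10 further calls were C1qa, C1qb, C1qc, C3, Cfb, Cfi, Cfp, F7 and F13b, all higher, and F3, lower. All 5 edgeR calls were higher in KO-labelled libraries, where 6.65% of all genes were called higher, and none were lower, where 5.54% of all genes were. The genes called were C2, Masp1, C6, C4b and F13a1. The study's own threshold is an absolute log2 fold change above 1 at p under 0.01 without adjustment. Applied to edgeR values, it took 6 members, all higher, against 8.37% of all genes higher and 7.54% lower, and added Cfb. With limma, the tool of the study, it took the same 6. In 13 members both KO-labelled values lay above both WT-labelled values, and in 1, F3, below, shares of 31.7% and 2.44% against 31.3% and 35.4% of all genes. At an unadjusted p under 0.05 stood 31.7% of members and 33.3% of all genes. The median of all genes in eWAT was -0.047 with TMM scaling, -0.348 with library totals and -0.252 with upper-quartile scaling, and 0 members changed sign between these scalings.

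Of the 5 calls, Masp1 was 1 of 8 initiating genes of complement (12.5%), and C2 and C4b were 2 of 4 convertase genes (50%). C6 was 1 of 6 terminal genes (16.7%), where 12.2% of all genes were called. C2 was at 21.9 and 14.5 CPM in WT-labelled eWAT and at 94.6 and 98.8 CPM in KO-labelled eWAT. The groups did not overlap and the KO-labelled replicates lay close together, giving a log2 fold change of 2.41 with a standard error of 0.33 (edgeR, adjusted p = 0.0226). Masp1, a serine protease of the lectin pathway, was at 2.31 and 3.73 CPM against 20 and 27.6 CPM, a log2 fold change of 2.97 with a standard error of 0.47 (adjusted p = 0.0271). C6 was at 2.17 and 2.02 CPM against 13.5 and 27.1 CPM, a log2 fold change of 3.27 with a standard error of 0.53 (adjusted p = 0.0283). All 3 genes were higher in both KO-labelled libraries.

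C4b, which is cleaved to form the classical convertase with C2, was at 100 and 48.6 CPM against 428 and 1140 CPM, a log2 fold change of 3.40 with a standard error of 0.69 (adjusted p = 0.0437). Cfb, the alternative-pathway counterpart of C2, was at 67.3 and 24.4 CPM against 275 and 1040 CPM, a log2 fold change of 3.84 that missed the threshold (standard error 0.90, adjusted p = 0.0574). Both were highest in replicate 2, the library with the hepatocyte markers, and in replicate 1 both still lay above both WT-labelled libraries. C3 was at 492 and 167 CPM against 664 and 4370 CPM and was called by DESeq2 (adjusted p = 0.00789) but not by edgeR (log2 fold change 2.93, standard error 1.10, adjusted p = 0.141, and 1.01 without replicate 2). F13a1 was at 6.41 and 8.35 CPM against 22.6 and 26.7 CPM, a log2 fold change of 1.74 with a standard error of 0.37 (adjusted p = 0.0470). DESeq2 and limma also called F13a1. In edgeR its call was lost with no expression filter (adjusted p = 0.0512), library totals (0.086), upper-quartile scaling (0.0563) and all 8 libraries (0.0639). Of these settings, upper-quartile scaling alone ended the call of C4b (edgeR, adjusted p = 0.0535). Some of these counts may be shared between genes: C2 and Cfb lie 85 bases apart on 1 strand of chromosome 17 under a readthrough model, Gm20547, C4b has a near-identical copy, C4a (0.156 to 8.18 CPM), and Masp1 overlaps Rtp4, which matters if strand was not used in counting.

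Which members were called in eWAT depended on single libraries. Without replicate 2 of KO-labelled eWAT there were 6 calls, all higher, against 7.01% of all genes called higher, of which C2 and C4b were shared with the 5, and the new ones were Cfb, C1qa, C1qb and C1qc. In that fit, which treats the lone library as varying like the others, C2 had a log2 fold change of 2.36 (adjusted p = 0.0201), C4b 2.52 (adjusted p = 0.0236) and Cfb 2.58 (adjusted p = 0.0422). Masp1 at 2.68 (adjusted p = 0.055), C6 at 2.66 (adjusted p = 0.0608) and F13a1 at 1.57 (adjusted p = 0.123) kept their direction and missed the threshold. Without replicate 1 of that group 31 members were called, all higher, against 9.84% of all genes. Without replicate 1, and likewise without replicate 2, of WT-labelled eWAT, 0 members and 0 of all genes were called, and C2 then had log2 fold changes of 2.75 (adjusted p = 0.143) and 2.16 (adjusted p = 0.253).

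In the main edgeR fit the hepatocyte-made members had the highest median fold change of the 3 classes, and none of them was called. Their median log2 fold change in eWAT was 4.02 (2.79 to 4.58), 0 of 23 had an unadjusted p under 0.05 in edgeR and in none were the groups apart. DESeq2 called F7 and F13b of this class. The lead of the class over the genes of liver and other tissues depended on the setting. The medians were 2.14 against 2.25 in limma on log2(FPKM + 1) and 2.35 against 2.32 on log2(FPKM + 0.1). With the replicate number as a block in edgeR they were 2.45 against 2.5. Fgb was at 81.6 and 9.49 CPM in WT-labelled eWAT and at 13.5 and 1460 CPM in KO-labelled eWAT. Fga was at 74.5 and 22.9 CPM against 10.7 and 1240 CPM, and Fgg at 47.2 and 7.99 CPM against 10.6 and 773 CPM. Replicate 2 of the KO-labelled group was far above the rest and replicate 1 within or near the WT-labelled range. Without replicate 2 the median of the class was -1.43, with 21 of 23 members below 0 and none called, and the log2 fold changes of Fga, Fgb and Fgg were -2.19, -1.73 and -1.37. Vtn was at 131 and 14 CPM against 79.6 and 2670 CPM, and its log2 fold change went from 4.24 to 0.15.

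**Figure D3:**
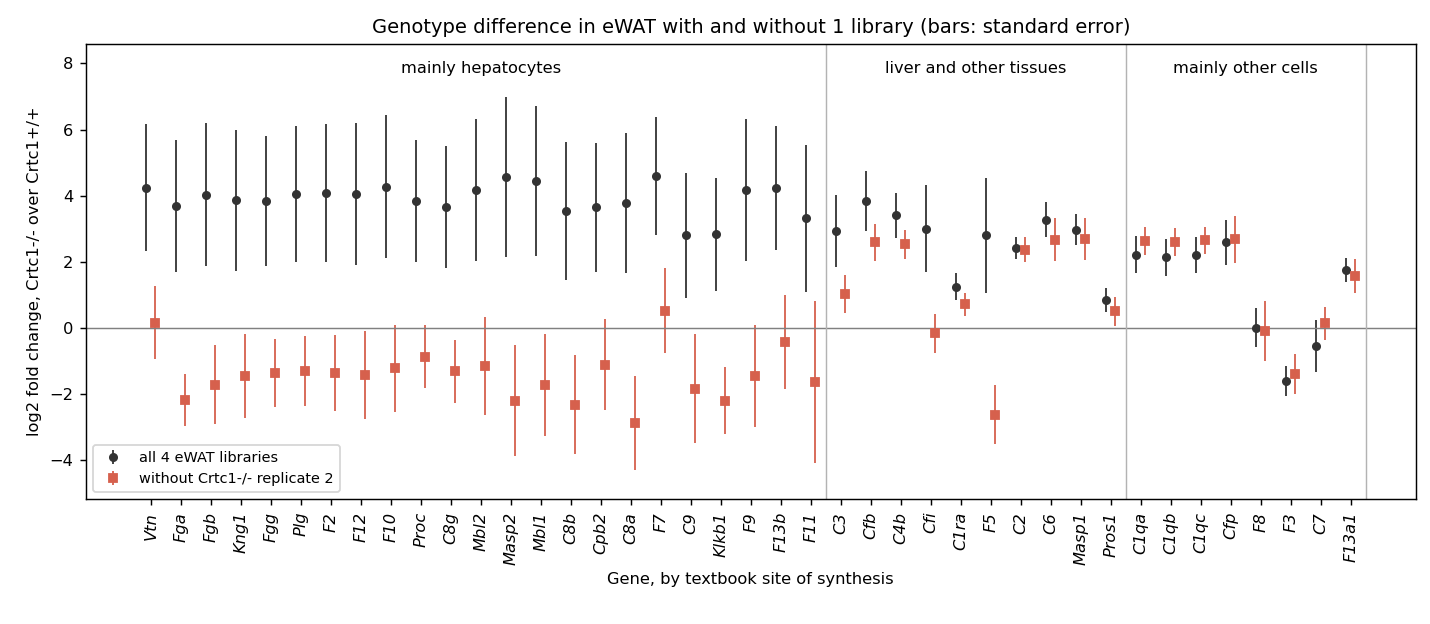
log2 fold change of each member in eWAT, Crtc1-/- over Crtc1+/+ label, with its standard error, from all 4 libraries (circles) and without Crtc1-/- replicate 2 (squares). The hepatocyte-made members go from a median of 4.02 to -1.43, whereas C2 (2.41 and 2.36), Masp1 (2.97 and 2.68) and the C1q chains stay above 0.

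C1q, the recognition protein of the classical pathway, is built of 3 chains whose genes lie side by side on chromosome 4 (C1qb 136880129 to 136886187, C1qc 136889804 to 136893065, C1qa 136895917 to 136898803, GRCm38). C1qa was at 80 and 39.3 CPM in WT-labelled eWAT and at 372 and 179 CPM in KO-labelled eWAT (log2 fold change 2.21, standard error 0.56, adjusted p = 0.0655). C1qb was at 64.7 and 33.3 CPM against 296 and 132 CPM, and C1qc at 62.1 and 32.9 CPM against 300.0 and 137 CPM, with log2 fold changes of 2.13 (adjusted p = 0.0722) and 2.20 (adjusted p = 0.0644). None of the 3 passed in the main edgeR fit of the 4 eWAT libraries. With no expression filter, C1qa (edgeR, adjusted p = 0.0461) and C1qc (adjusted p = 0.045) passed and C1qb (adjusted p = 0.0512) did not. All 3 passed in DESeq2 (adjusted p of 0.000731, 0.00155 and 0.000731) and in edgeR over 8 libraries (0.0316, 0.0403 and 0.0268). All 3 did without replicate 2 of the KO-labelled group, at log2 fold changes of 2.63 (adjusted p = 0.0207), 2.59 (adjusted p = 0.0197) and 2.65 (adjusted p = 0.0173). The chains kept a nearly fixed proportion, with C1qb at 0.604 to 0.847 of C1qa over the 8 libraries.

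The 14 macrophage markers summed to 495 and 236 CPM in WT-labelled eWAT and to 1420 and 593 CPM in KO-labelled eWAT. All 14 had a log2 fold change above 0 in eWAT, with a median of 1.61, and 3 were called. Without KO-labelled replicate 2 the median was 1.93 and 6 were called, and none of the 14 was at 0 in any eWAT library. Their part in the result for C1q was not tested. The summed C1q chains were 47.4% and 48.9% of the summed markers in WT-labelled eWAT, 67.2% and 61.7% in KO-labelled eWAT, and 95.9% to 115% in liver. Properdin (Cfp), the myeloid stabilizer of the alternative convertase, was at 21.2 and 5.65 CPM against 85.7 and 74.6 CPM (log2 fold change 2.58, standard error 0.68, adjusted p = 0.0709, and 2.68 without KO-labelled replicate 2, adjusted p = 0.0746). The 5 Kupffer cell markers, which mark the resident macrophages of liver, summed to 27, 13.1 and 20.2 CPM in the eWAT libraries other than KO-labelled replicate 2 and to 83 CPM in that library.

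**Figure D4:**
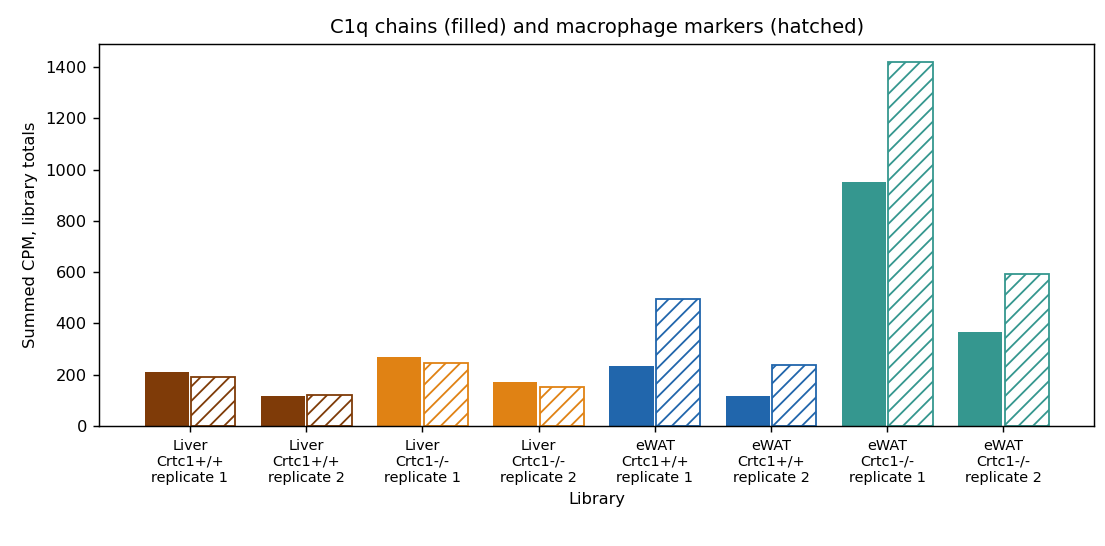
Summed CPM (library totals, linear axis from 0) of C1qa, C1qb and C1qc (filled bars) and of 14 macrophage markers (hatched bars) in each of the 8 libraries. C1q is 47.4% and 48.9% of the markers in Crtc1+/+ eWAT and 67.2% and 61.7% in Crtc1-/- eWAT, and about as high as the markers in liver.

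F3, F8 and C7, the remaining members of the non-hepatocyte class beside F13a1, had log2 fold changes at or below 0. F3 was at 13.1 and 19.7 CPM in WT-labelled eWAT and at 6.38 and 4.3 CPM in KO-labelled eWAT, a log2 fold change of -1.62 that edgeR did not call (standard error 0.46, adjusted p = 0.0831), although DESeq2 (adjusted p = 0.00825) and edgeR over 8 libraries (adjusted p = 0.0363) did. It was lower in both KO-labelled libraries, and at -1.41 without replicate 2. F8 was at 2.22 and 3.06 CPM against 2.53 and 2.71 CPM, and the groups overlapped (log2 fold change -0.01, and -0.10 without replicate 2), while 10 of 10 endothelial markers were called higher in the same comparison with a median of 3.46. C7 was at 12.1 and 12.4 CPM against 13.7 and 2.78 CPM, low in KO-labelled replicate 2 alone (log2 fold change -0.57, and 0.13 without that library). Pros1 was at 14.1 and 16.5 CPM against 22 and 32.6 CPM (log2 fold change 0.83, adjusted p = 0.187, and 0.49 without replicate 2), and C1ra at 60.7 and 40.8 CPM against 83.7 and 156 CPM (log2 fold change 1.24, adjusted p = 0.120, and 0.70 without it). In F5 and Cfi the sign turned on that library. F5 was at 6.74 and 4.82 CPM against 0.934 and 79.7 CPM, with log2 fold changes of 2.80 and, without replicate 2, -2.64. Cfi, the protease that inactivates C3b, was at 25.8 and 11.3 CPM against 16.5 and 279 CPM, with 2.99 and -0.17.

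In liver the genotype comparison could test 38 members, since C7, F3 and F13a1 were too low, and 0 were called by edgeR, against 0.0854% of all genes. At an unadjusted p under 0.05 stood 6 (15.8%), against 17.3% of all genes, and DESeq2 called 2, F9 and Fga (5.26%), against 2.66%. F9, the protease deficient in haemophilia B, was at 55.9 and 73.6 CPM in WT-labelled libraries and at 109 and 160 CPM in KO-labelled libraries. It was higher in both KO-labelled libraries, at a log2 fold change of 1.06 with a standard error of 0.29 (edgeR, unadjusted p = 0.00532, adjusted p = 0.162). With edgeR it alone among members passed the study's threshold, against 2.84% of all genes called higher by it. With limma, the tool of the study, Fga passed as well, at a log2 fold change of -1.18 on log2(FPKM + 1). Groups did not overlap in 8 members that were higher and 14 that were lower, 21.1% and 36.8%, against 25.8% and 26.4% of all genes.

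The fibrinogen genes, which lie together on chromosome 3, were lower in KO-labelled liver without passing the test. Fga was at 3900 and 3250 CPM against 2200 and 1620 CPM (log2 fold change -0.90, standard error 0.27, adjusted p = 0.181). Fgg was at 2080 and 1900 CPM against 1340 and 1040 CPM (log2 fold change -0.74, standard error 0.26, adjusted p = 0.220). Fgb was at 3310 and 2890 CPM against 2550 and 2330 CPM (log2 fold change -0.35, standard error 0.25, adjusted p = 0.482). The ratio of Fgb to Fga counts was 0.85 and 0.89 in WT-labelled liver and 1.16 and 1.44 in KO-labelled liver, and the difference between the chains was not tested. Plg was at 1680 and 2110 CPM against 1460 and 904 CPM, and C8a at 109 and 181 CPM against 105 and 56.6 CPM. In both the lowest value was in KO-labelled replicate 2, as it was for C6 (28.6 and 52.9 CPM against 32.3 and 7.41 CPM) and C9 (64.7 and 134 CPM against 84.9 and 22.2 CPM). Without replicate 1 of KO-labelled liver, 9 members were called, F9 higher and C6, C8a, C9, F2, F7, Fga, Fgg and Plg lower. That is 23.1% of members, in a fit that called 12.5% of all genes.

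The 2 most abundant members did not separate the labels clearly in liver. C3 was at 9460 and 8740 CPM against 8650 and 5850 CPM (log2 fold change -0.33, standard error 0.28), and Vtn at 4720 and 4130 CPM against 4670 and 4350 CPM (log2 fold change 0.03, standard error 0.25). The contact-system prekallikrein (Klkb1) was at 64.9 and 87.4 CPM against 113 and 111 CPM (log2 fold change 0.56, adjusted p = 0.308). The median over the tested members was -0.27 and over all genes 0.004.

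**Figure D5:**
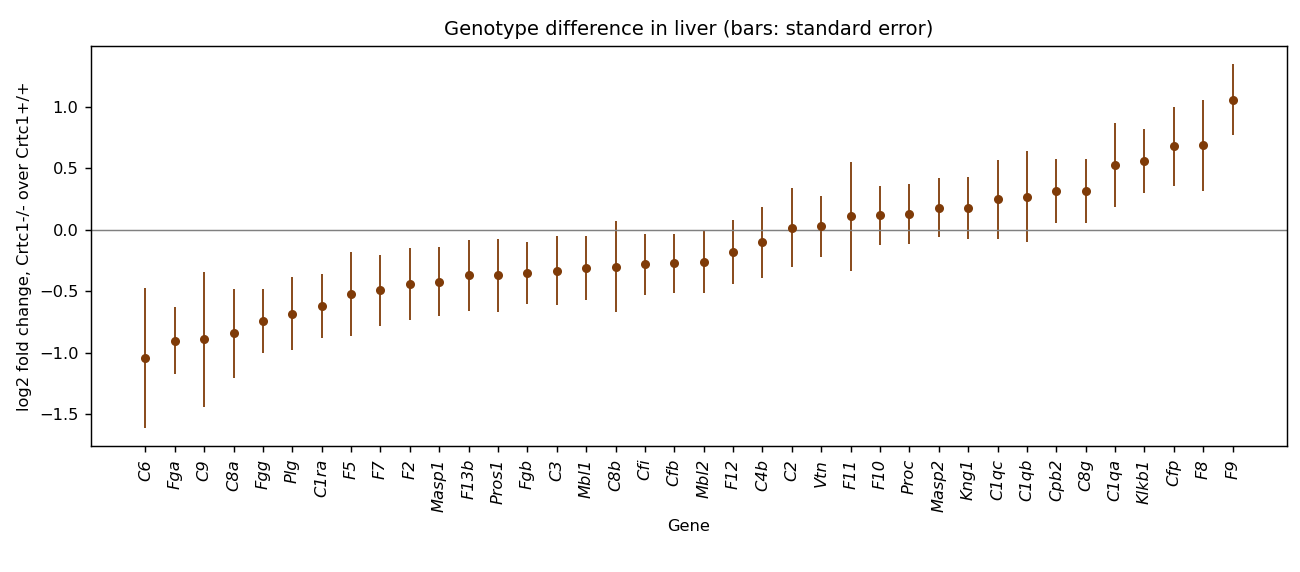
log2 fold change in liver, Crtc1-/- over Crtc1+/+ label, with standard error, for the 38 members tested, in order of size. F9 at 1.06 is the highest and C6 at -1.04, with the widest error, the lowest. None passed an adjusted p of 0.05.

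Whether the genotype difference itself differed between the tissues was tested as an interaction over all 8 libraries. Of 41 members 2 were called, both with a positive difference, against 6.94% of all genes (3.78% positive). Masp1 had log2 fold changes of 2.97 in eWAT and -0.42 in liver when each tissue was fitted alone, and an interaction of 3.34 (standard error 0.49, adjusted p = 0.0145). C2 had 2.41 in eWAT and 0.02 in liver, and an interaction of 2.30 (standard error 0.53, adjusted p = 0.0496) that was lost with library totals, with upper-quartile scaling and with the number as a block within genotype (adjusted p = 0.0772). Both calls were also made without replicate 2 of KO-labelled eWAT, and neither was made when any 1 of the 4 liver libraries or of the 2 WT-labelled eWAT libraries was left out.

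Further genes of the cascades, listed beside the members, added calls in eWAT and none in liver. Of 24 other complement genes tested 3 were higher and 1 lower in KO-labelled libraries. These are 12.5% and 4.17%, against 6.65% and 5.54% of all genes. C1s1, the protease that pairs with C1r, was at 69.7 and 56.5 CPM against 171 and 259 CPM (log2 fold change 1.77, adjusted p = 0.0399). Cd59a, an inhibitor of the membrane pore, had a log2 fold change of 1.79 (adjusted p = 0.0323) and C5ar1, the receptor of the C5a peptide, 2.89 (adjusted p = 0.0342). Clusterin (Clu), a chaperone known to be abundant in the epididymis, had 12700 and 13100 CPM against 351 and 1100 CPM (log2 fold change -4.15, adjusted p = 0.0443), and 10 of 10 epididymis markers were called lower in the same comparison. Of 30 other coagulation genes 4 were higher (13.3%, against 6.65% of all genes) and 0 lower (against 5.54%). They included Plaur, the urokinase receptor (log2 fold change 3.65, adjusted p = 0.0260), Vwf, the platelet-binding protein of endothelium (3.26, adjusted p = 0.0396), and Thbd, the endothelial thrombin receptor (2.20, adjusted p = 0.0287). Of the genes named here, all but Cd59a (adjusted p = 0.0516) were also called without replicate 2 of KO-labelled eWAT. In liver 0 of 24 complement and 0 of 26 coagulation genes were called by edgeR, against 0.0854% of all genes. An unadjusted p under 0.05 was found for 3 and 2 (12.5% and 7.69%), against 17.3% of all genes.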

How the data were processed

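RNA of liver and eWAT from 2 mice per tissue and genotype label was sequenced by the authors. The authors deposited 1 table of estimated counts and 1 of FPKM per gene. Their processing notes name HISAT, Bowtie2 and GRCm38.p6, and the counting tool, annotation and strand use are not given in the sources used here. Replicates were separate mice per the study's methods, and groups were taken from the labels.

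Estimated counts (5.44% to 9.98% not whole) were rounded. Libraries held 16560070 to 19721464 counts, and 3 counts, the floor, are 0.152 to 0.181 CPM. Genotypes were compared within each tissue with edgeR 4.0.16 (filterByExpr, TMM, quasi-likelihood F test, R 4.3.3), and tissues and the interaction in 1 fit of 8 libraries. P-values were two-sided and adjusted over all genes by Benjamini-Hochberg. Deposited FPKM served to compare genes. Scripts were tested on simulated data. The alternatives were DESeq2 1.42.0, limma 3.58.1 on log2(FPKM + 1) and log2(FPKM + 0.1), other scalings, no filter, a replicate block, a replicate block within genotype (chosen after seeing the data) and each library left out.

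All members are named. Of the other cascade genes, those with an adjusted p under 0.05 and groups that do not overlap are named, up to 6 per list. A gene that met this rule is not reported here. Members, classes and lists were chosen with earlier results of these data known. Class and marker lists are textbook knowledge. Loci are from GENCODE M21 (GRCm38), and promoters were matched for 32 of 41 members.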

Additional observations from a re-analysis of the deposited data

Results flagged for a closer look

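The genotype difference of 2 members differed between tissues in the interaction test of edgeR over 8 libraries. It was larger in eWAT than in liver by 3.34 (log2, standard error 0.49, adjusted p = 0.0145) for Masp1 and by 2.30 (standard error 0.53, adjusted p = 0.0496) for C2. In both genes both KO-labelled eWAT libraries lay above both WT-labelled ones. With 2 libraries per group no library could be tested as standing apart.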

How the results depend on the processing

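The 5 members called in eWAT became 15 with DESeq2, 3 with upper-quartile scaling, 10 in the 8-library fit and 0 to 31 when 1 library was left out. The 6 past the study's threshold became 15 with DESeq2, 10 with no expression filter, 10 in the 8-library fit and 1 to 31 with 1 library left out. In liver, the 0 called became 2 with DESeq2 and 0 to 9 with 1 library left out, and the 1 past the study's threshold became 2 with limma at either pseudocount, 0 in the 8-library fit and 0 to 6. Between tissues, 38 calls in the WT-labelled groups became 11 to 41 with 1 library left out. The 6 in the KO-labelled groups became 14 with DESeq2 and 1 to 34 with 1 left out. The 2 interactions became 9 with DESeq2, 1 with library totals, 1 with upper-quartile scaling, 5 with limma and 0 to 30 with 1 left out. As shares of members and of all genes, the adjusted calls in eWAT were 36.6% and 30% with DESeq2. They were 7.32% and 11.3% with upper-quartile scaling, and 24.4% and 24.8% in the 8-library fit. With DESeq2 they were 5.26% and 2.66% in liver, and 34.1% and 33% between tissues in the KO-labelled groups. The interactions were 22% and 13.2% with DESeq2, 2.44% and 4.52% with library totals, and 2.44% and 6.19% with upper-quartile scaling. With limma they were 12.2% and 16.1%. The fold changes of Fga, Fgb and Fgg in eWAT (3.68, 4.02 and 3.83) were -2.19, -1.73 and -1.37 without replicate 2 of KO-labelled eWAT. They reached 4.88, 6.39 and 5.73 without replicate 1 of WT-labelled eWAT. With all 4 libraries kept, they were 1.34, 2.11 and 1.99 in limma on log2(FPKM + 1). With the replicate number as a block they were 1.49, 2.33 and 2.22. Beyond fewer libraries and the hepatocyte markers of replicate 2 of KO-labelled eWAT, the cause of these shifts was not tested.

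With the replicate number as a block, 0 members and 0 of all genes were called in eWAT, and 0 members and 0.7% of all genes in liver. The 5 interactions called were 12.2% of members, against 11.2% of all genes. The adjusted p in eWAT was then 0.0543 for C2 and Masp1, 0.0583 for C6, 0.0652 for F13a1 and 0.0965 for C4b. The labels do not say that numbers pair mice, and deviations from group means correlated at -0.0857 between genotypes in eWAT and 0.0654 in liver, and at 0.243 between tissues in WT-labelled and 0.0151 in KO-labelled libraries, over 13912 genes. With the number as a block within genotype, added after seeing the data, 30 and 5 members were called between tissues in the WT- and KO-labelled groups, and 2 interactions, Masp1 and C1qb. Of members these are 73.2%, 12.2% and 4.88%, against 54.7%, 28.9% and 5.94% of all genes.

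Each group held 2 mice, and at these depths 3 counts correspond to at most 0.181 CPM. A fit with 1 library in a group assumes that it varies like the others.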
